A study of Mus musculus with 16 samples.

Results

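Imprinted genes are transcribed mainly from the copy inherited from 1 parent. The 50 mouse genes described here were chosen by symbol, as members of well-known imprinted loci, and each mutant was set against its control, locus by locus. Of the 50 symbols, 49 were found in at least 1 of the 3 deposited tables, which together list 26653 genes, and 29 were found in all 3. In stem cells 47 of them are listed among 23083 genes, in embryonic fibroblasts 33 among 21615 and in kidney fibroblasts 37 among 18288. Magel2 is in none of the tables.

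At an imprinted locus, DNA methylation laid down in the egg or the sperm marks a control region, and this mark is kept through the divisions of the embryo by factors such as Zfp57, Trim28 and Dnmt1. The marked and unmarked copies then express different genes, often a protein-coding gene from one copy and a long noncoding RNA from the other. Many imprinted genes act on fetal growth, and genes expressed from the father's copy, such as Igf2, often promote growth, while genes expressed from the mother's copy, such as Igf2r, Cdkn1c and Phlda2, often restrain it. Imprints are known to drift in cultured stem cells. The RNA values here do not separate the parental copies, so no value below says which copy was read. By textbook knowledge, 12 of the 50 genes are read mainly from the maternal copy, 23 mainly from the paternal copy, and the bias of 15 is limited to some tissues, transcripts or stages. Chromosome 7 carries 20 of the 50.

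The series examined transcriptional adaptation, in which mutating a gene alters the expression of related genes. Total RNA of 16 samples was sequenced, in 8 groups of 2 libraries. Embryonic stem cells (ESCs) were wild type, knocked out for Actb (KO) or deleted for the full Actb locus, which encodes beta-actin. Embryonic fibroblasts (MEFs) had the same 3 genotypes for Actg1, the gene of gamma-actin: wild type, KO and deletion of the full locus. In kidney fibroblasts (MKFs) Kindlin-2 KO cells were set against cells with the floxed gene (Fermt2), which is flanked by recombination sites. How the alleles were made, whether a mutant line is 1 clone, and the strain, sex and passage of the cells are not given in the sources used here, so a difference between a mutant and its control cannot be told apart from a difference between cell lines. Whether the 2 libraries of a group are separate cultures is not stated in the labels. The p-values therefore rest on the spread between libraries alone, and this spread may be technical.

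Values are normalised read counts, given as library 1 and library 2 of a group (n = 2). Differences are on the log2(value + 1) scale, mutant minus control, with their standard error (SE), and every adjusted p is from limma, two-sided, over all genes tested in a table. A gene is said to rise or fall only at an adjusted p below 0.05. The targeted gene was lower than in its control in every mutant library. Actb stood at 36364 and 34140 in wild-type ESCs, at 23650 and 22707 in the KO and at 2372 and 2336 after locus deletion, so values for Actb remained where the label gives a deleted locus. Actg1 stood at 5737 and 5672 in wild-type MEFs, at 1004 and 1026 in the KO and at 25 and 15 after locus deletion, and Fermt2 at 3078 and 3142 in floxed MKFs and 1251 and 1240 in the KO. Library sums ran from 15565648 to 22094490, which corresponds to an estimated 12720000 to 24470000 reads on genes. All 10 pluripotency markers were listed in ESCs, with summed levels of 44342 to 48354 in every library. Single markers did shift: 2 of the 10 rose in the KO and none fell, and 1 rose and 2 fell after locus deletion. All 13 fibroblast markers were listed in MEFs. In wild-type MEFs Dcn (17 and 14), Lum (7 and 10) and Thy1 (11 and 3) were low, and the other fibroblast markers stood at 105 or more. Dcn and Lum were low after locus deletion too (12 and 5, 1 and 0) and high in the KO (8037 and 7653, 4555 and 4508). In MKFs only 9 of the 13 fibroblast markers were listed (Col3a1, Dcn, Lum and Thy1 were not), and Pax8, Pax2, Cdh16 and Epcam of kidney epithelium were listed too, so the markers match the fibroblast label in part. The library kit keeps the strand of the RNA, but whether counting used it is not given in the sources used here, so reads of overlapping antisense pairs (Kcnq1 and Kcnq1ot1, Igf2r and Airn, Mest and Copg2, Ube3a and Snhg14, Gnas and Nespas, Rtl1 and its microRNAs) cannot be told apart. In a bulk sample, fewer cells of a type and less RNA per cell cannot be told apart.

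The promoters of 4 genes on which the results turn are shown first, as the 250 bases before the RefSeq start on GRCm38.p6, 5′ to 3′ on the gene's strand, with every CpG, the site that imprint methylation acts on, in capitals. Peg3 (chr7:6730420-6730669, minus strand) and Kcnq1ot1 (chr7:143296548-143296797, minus strand) are read from the paternal copy and lost nearly all their RNA in KO kidney fibroblasts, Zim1 (chr7:6696433-6696682, minus strand) is the maternal neighbour of Peg3, and Plagl1 (chr10:13090582-13090831, plus strand) moved in opposite directions in the MEF mutants.
Peg3: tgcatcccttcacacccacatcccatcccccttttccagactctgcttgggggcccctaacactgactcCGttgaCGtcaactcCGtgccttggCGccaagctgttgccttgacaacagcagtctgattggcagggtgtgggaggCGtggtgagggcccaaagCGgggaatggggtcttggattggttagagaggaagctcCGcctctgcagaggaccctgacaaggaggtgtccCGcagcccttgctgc
Zim1: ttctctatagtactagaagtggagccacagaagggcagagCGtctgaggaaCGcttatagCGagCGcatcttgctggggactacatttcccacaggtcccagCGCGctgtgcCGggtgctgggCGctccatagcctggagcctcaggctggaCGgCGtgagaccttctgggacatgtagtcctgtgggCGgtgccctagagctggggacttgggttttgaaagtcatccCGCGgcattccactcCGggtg
Kcnq1ot1: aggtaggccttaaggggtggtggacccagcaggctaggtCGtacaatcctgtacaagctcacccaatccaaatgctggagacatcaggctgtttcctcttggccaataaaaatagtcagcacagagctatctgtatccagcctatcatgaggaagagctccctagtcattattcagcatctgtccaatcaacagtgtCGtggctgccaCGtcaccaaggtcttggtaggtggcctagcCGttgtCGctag
Plagl1: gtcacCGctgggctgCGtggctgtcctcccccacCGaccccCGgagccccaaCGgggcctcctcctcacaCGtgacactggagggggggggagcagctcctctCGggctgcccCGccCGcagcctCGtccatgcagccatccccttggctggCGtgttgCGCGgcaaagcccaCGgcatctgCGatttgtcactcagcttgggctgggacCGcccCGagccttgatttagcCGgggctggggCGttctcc
These windows hold 8, 14, 5 and 19 CpGs. The window of Usp29, on the opposite strand, shares 163 of its 250 bases with that of Peg3. Over the 40 genes of the list with a RefSeq window, the median was 10 CpGs, beside 6.0 over all 32817 windows. The hexamer TGCCGC, the core that Zfp57 is known to bind when methylated, was found on either strand in 6 of the 40 windows (15.0%) and in 8.7% of all windows. It occurs once in the windows of Zim1 and Plagl1 and not in those of Peg3 and Kcnq1ot1. The windows end at the start and were not chosen as the control regions of these loci. The hexamer was not searched for elsewhere, so its absence from a window does not show its absence from the locus. No methylation was measured here.

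**Figure D1:**
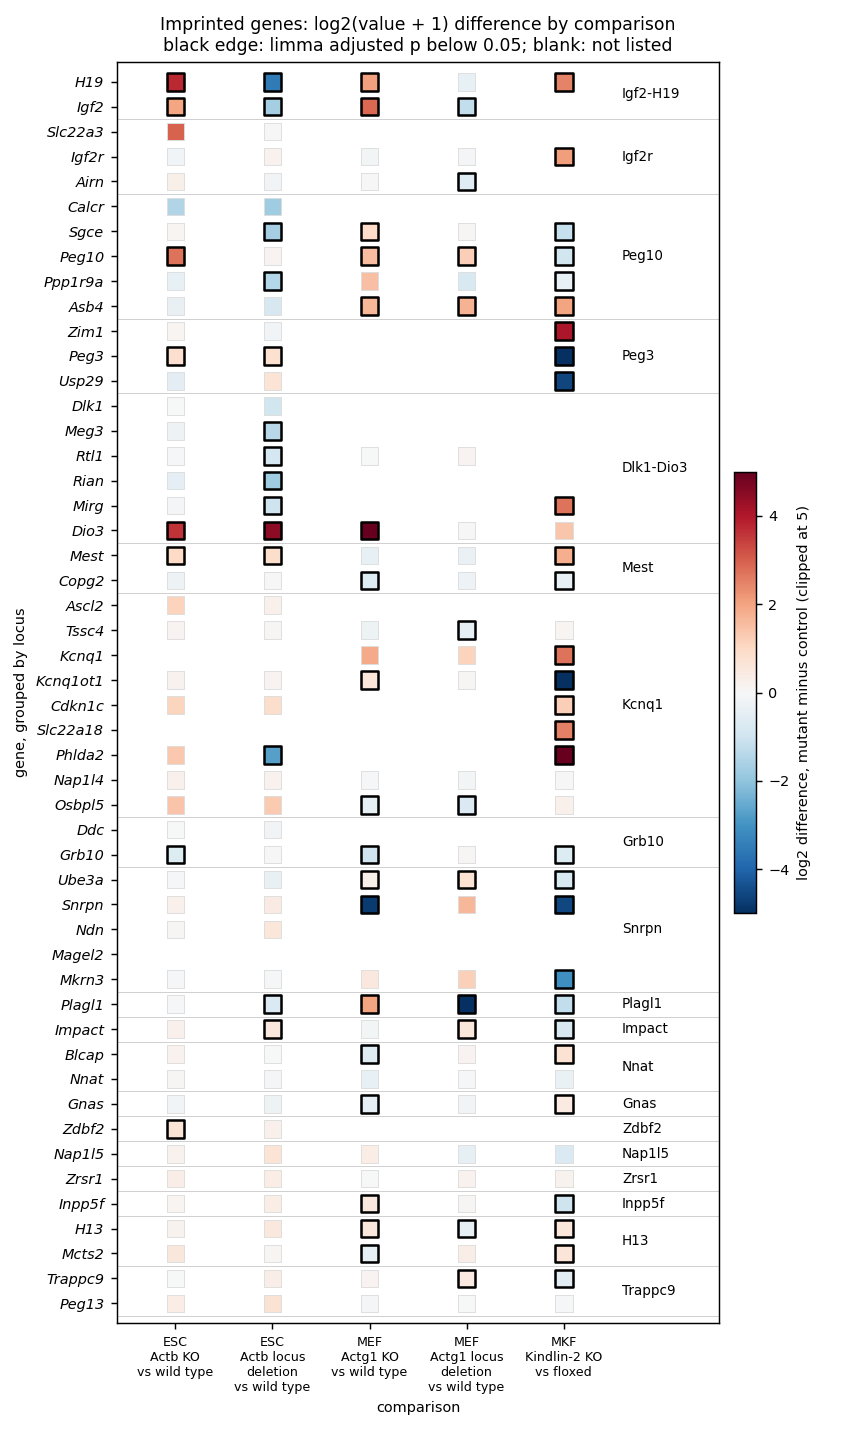
Each square is the log2(value + 1) difference of a gene (rows, grouped by locus and ordered by position) in a mutant against its control (columns), from blue (lower) to red (higher), clipped at 5, with a black edge where the limma adjusted p is below 0.05. The kidney fibroblast column holds 29 edged squares of 37, the stem cell columns 8 and 14 of 47.

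In Actb KO ESCs, the largest called differences lay at 3 loci: H19 with Igf2, Peg10, and Dio3. Of the 47 listed genes, 7 rose and 1 fell in the KO, while 4.88% of all 23054 genes tested were called, 2.44% in each direction. The median difference over the 47 genes was 0.14, beside 0 over all genes, and 21.3% of them differed by at least 1 on the log2 scale, beside 13% of all genes. Of the genes read mainly from the paternal copy 6 of 22 rose, of those read mainly from the maternal copy 1 of 10 rose and 1 fell, and none of the 15 genes with limited bias was called. For 31 of the 47 the values of KO and wild type did not overlap, and 15 had an unadjusted p below 0.05. The share over all genes was not counted for either, here or in the later comparisons. With so few libraries a group, genes without a difference can also fail to overlap, so such counts describe the listed genes only.

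H19 (chromosome 7, 142575529 to 142578143) is a noncoding RNA that shares an enhancer region with the growth factor gene Igf2. H19 stood at 200 and 157 in wild-type ESCs and at 2675 and 2241 in the KO, a difference of 3.78 (SE 0.353, adjusted p = 0.00133) and a 13.8-fold higher level. Igf2 stood at 18 and 39 in wild type and at 91 and 127 in the KO (1.98, SE 0.388, adjusted p = 0.0284). Both KO libraries lay above both wild-type libraries for each gene, although the 2 genes of this locus are normally read from opposite parental copies. Of the Igf2 exon bases, 62.8% are shared with the annotated gene Gm49394 on the same strand, so reads of the 2 cannot be told apart with certainty.

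Peg10, a gene derived from a retrotransposon and needed for the placenta, stood at 1124 and 1341 in wild type and at 7622 and 8603 in the KO (2.72, SE 0.126, adjusted p = 5.61e-05), 6.58-fold higher. Per kilobase of exon it had the highest level of the listed genes in the KO, at 1220, ahead of H19 at 999. Its neighbour Sgce, which starts close by on the other strand, stood at 27 and 32 in wild type and 35 and 28 in the KO, with overlapping values. Ppp1r9a of the same locus, a cytoskeletal regulator of neurons, stood at 928 and 978 in wild type and 721 and 725 in the KO (−0.40, adjusted p = 0.0767). Dio3, the enzyme that inactivates thyroid hormone, stood at 41 and 35 in wild type and at 468 and 473 in the KO (3.60, SE 0.163, adjusted p = 5.61e-05), a 12.4-fold higher level. None of the other 5 genes of the Dlk1-Dio3 locus was called in the KO.

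The remaining calls in the KO were smaller. Peg3, a zinc finger protein gene, stood at 3317 and 3192 in wild type and at 5784 and 5804 in the KO (0.83, adjusted p = 0.00284). Zdbf2, a zinc finger gene of chromosome 1, rose from 4337 and 4680 to 7053 and 7591 (0.70, adjusted p = 0.00679). Mest, a gene of the hydrolase family expressed in mesoderm, rose 2.00-fold from 303 and 262 to 607 and 521 (adjusted p = 0.0225). These 3 paternally read genes were each higher in both KO libraries. Grb10, an adaptor that dampens insulin signalling, was the only listed gene to fall, from 1085 and 1255 to 681 and 764 (−0.69, adjusted p = 0.0181). Kcnq1ot1, the noncoding RNA that silences its locus, was not called, with 16106 and 18083 in wild type and 19867 and 20194 in the KO.

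With 2 libraries a group, these calls depended on each library. Without KO library 2, Peg10 and Dio3 were still called (adjusted p = 0.0374 for each), and without KO library 1, wild-type library 1 or wild-type library 2, no listed gene was. Over these 4 fits H19 had an adjusted p of 0.132 to 0.176, Igf2 of 0.123 to 0.277, Peg3 of 0.0925 to 0.161 and Zdbf2 of 0.120 to 0.176, with their signs kept. Libraries with the same number deviated together in ESCs, and with the number as a block 12 genes were called, among them Rian (−0.48, adjusted p = 0.0213 in place of 0.0786), Mcts2 (0.0450 in place of 0.118), Ppp1r9a (0.0469 in place of 0.0767) and Slc22a3 (0.0404 in place of 0.0739). Slc22a3 is in the ESC table only through the KO, so its difference had to appear. Summed levels of the primitive endoderm markers, 6 of 8 listed, were 80 and 78 in wild type and 175 and 151 in the KO, and those of the trophoblast markers, 8 of 8 listed, 1808 and 1907 against 1787 and 1808. Of these lists 2 endoderm and 3 trophoblast genes rose and 1 of each fell. Most of the trophoblast sum was Tfap2c, at 1545 and 1632 in wild type and 929 and 1005 in the KO. Krt8 stood at 105 and 92 in wild type, 344 and 286 in the KO and 26 and 24 after locus deletion, and Krt18 at 88 and 60, 339 and 302, and 15 and 15. After locus deletion the trophoblast sum was 2045 and 1852, with 1 gene higher and 2 lower. Neuron markers, 4 of 5 listed, summed to 1342 and 1444 in wild type, 2764 and 2845 in the KO and 2592 and 3516 after locus deletion, with 2 higher in each mutant. Macrophage and blood markers, 3 of 5 listed, summed to 1103 and 970, 2038 and 1942, and 1390 and 1276 in the same order, with 2 higher in the KO. Endothelial markers, 4 of 4 listed, summed to 2057 and 1991, 1438 and 1502, and 1170 and 1229, with 2 lower in the KO. The part of these shifts in the differences above was not tested.

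**Figure D2:**
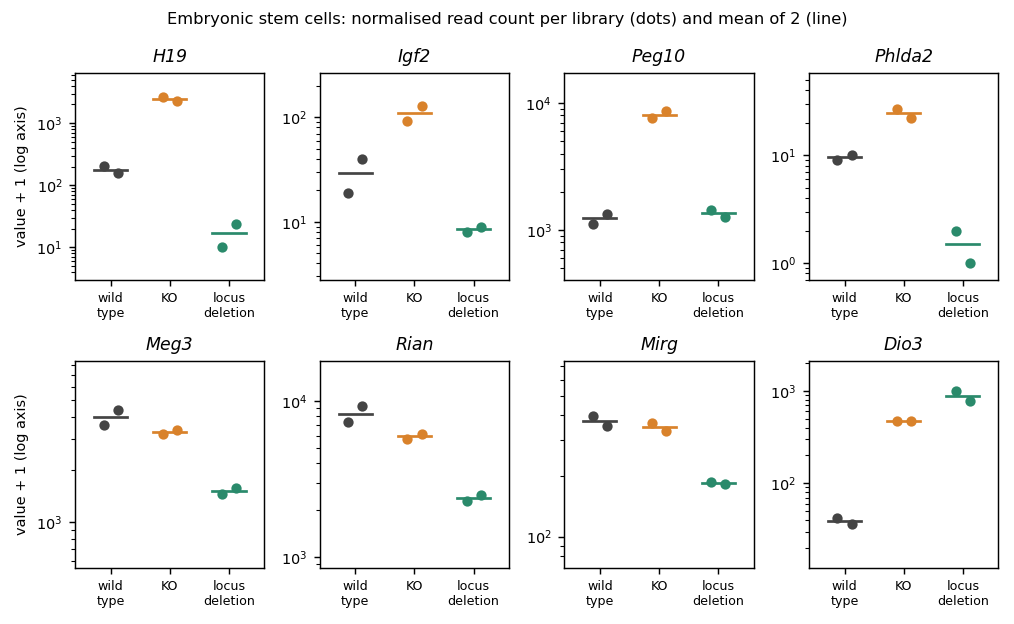
Normalised read count + 1 on a log axis for 8 genes in wild-type, Actb KO and Actb locus deletion ESCs, with 1 dot per library and a line at the mean of the 2. H19 and Igf2 are highest in the KO and lowest after locus deletion, while Meg3, Rian and Mirg are lowest after locus deletion and Dio3 is highest there.

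After deletion of the full Actb locus, the maternally read noncoding RNAs of the Dlk1-Dio3 locus fell together and Dio3 rose. Of the 47 genes 4 rose and 10 fell, while 11.2% of all genes tested were called, 5.19% higher and 6% lower. The median over the 47 was 0.03, beside 0.005 over all genes, 23.4% differed by at least 1 on the log2 scale, beside 16.2% of all genes, and the values of 29 did not overlap with wild type. Among the genes read mainly from the maternal copy 5 of 10 fell and none rose, and their median was −0.93. Among those read mainly from the paternal copy 4 rose and 4 fell, of 22.

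The Dlk1-Dio3 locus on chromosome 12 is a run of genes in which Meg3, Rian and Mirg, noncoding RNAs that carry many small RNAs, are read from the maternal copy, and Dlk1, Rtl1 and Dio3, which encode proteins, from the paternal copy. Meg3 (109541001 to 109571726) stood at 3610 and 4404 in wild type, 3217 and 3398 in the KO and 1454 and 1568 after locus deletion (locus deletion against wild type −1.40, SE 0.118, adjusted p = 0.000491). Rian stood at 7318 and 9352, at 5741 and 6163, and at 2291 and 2497 in the same order (−1.79, SE 0.129, adjusted p = 0.000249), a 3.48-fold lower level. Mirg stood at 396 and 354, at 364 and 334, and at 185 and 181 (−1.03, adjusted p = 0.00285). In each of the 3 RNAs both locus deletion libraries lay below all 4 others. Rtl1, a retrotransposon-derived gene that lies opposite small RNAs of the same stretch, stood at 412 and 287 in wild type, 347 and 313 in the KO and 209 and 168 after locus deletion (−0.87, adjusted p = 0.0257). Dio3 stood at 982 and 765 after locus deletion, against 41 and 35 in wild type (4.48, SE 0.163, adjusted p = 1.01e-05), 23-fold higher. Dlk1, a ligand related to those of Notch, was low in all ESCs, from 4 to 14.

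The KO and the locus deletion share their wild-type libraries, so their values are set side by side. H19 fell to 9 and 23 after locus deletion, against 200 and 157 in wild type (−3.52, SE 0.353, adjusted p = 0.00102), 11.2-fold lower, where the KO was 13.8-fold higher. Igf2 fell to 7 and 8, against 18 and 39 (−1.70, adjusted p = 0.0270). Peg10, at 1450 and 1275 after locus deletion, overlapped with wild type and was not called. Both Ppp1r9a and Sgce, neighbours of Peg10, fell. Ppp1r9a stood at 343 and 351 (−1.46, SE 0.107, adjusted p = 0.000254), below the 928 and 978 of wild type. Sgce, the gene of epsilon-sarcoglycan, stood at 9 and 8 against 27 and 32 (−1.68, adjusted p = 0.0124).

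Peg3 was higher than in wild type after locus deletion too, at 5598 and 5727 (0.80, adjusted p = 0.00156), and so was Mest, at 620 and 436 (0.88, adjusted p = 0.0187). Impact, which dampens the stress kinase Gcn2, rose from 1869 and 1740 to 2889 and 2382 (0.54, adjusted p = 0.0283). The transcription factor gene Plagl1 fell from 2802 and 3319 to 1600 and 2042 (−0.75, adjusted p = 0.0143). Phlda2, which limits placental growth, was listed at 8 and 9 in wild type and at 1 and 0 after locus deletion (−2.75, adjusted p = 0.0153), and at these levels no fold is given. Of the abundant genes, Kcnq1ot1 stood at 17797 and 19410 after locus deletion and Gnas, which encodes the stimulatory G protein subunit, at 410 and 719, both overlapping with wild type (628 and 667 for Gnas). The splicing protein gene Snrpn, at 646 and 690 in wild type and 921 and 848 after locus deletion, the ubiquitin ligase gene Ube3a, at 3685 and 4409 against 3131 and 3104, and the histone chaperone gene Nap1l4, at 1654 and 1784 against 1642 and 2425, were not called. In the KO, where none of them was called either, Snrpn stood at 710 and 875, Ube3a at 3753 and 4029, Nap1l4 at 1821 and 2247 and Gnas at 551 and 580. Tssc4 ran from 86 to 119 over the 6 ESC libraries.

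The calls for Dio3, Rian, Meg3 and Ppp1r9a held whichever library was left out, with adjusted p of at most 0.0475. Leaving out locus deletion library 1 or 2 left 6 genes called, and leaving out wild-type library 1 or 2 left 4, H19 (0.0808 at most) and Peg3 (0.0593 at most) being lost there. Mirg (0.0551 to 0.0648), Igf2 (0.0699 to 0.185), Sgce, Plagl1, Phlda2, Mest, Rtl1 and Impact were called in none of the 4 fits. With the replicate number as a block, H13 (0.51, adjusted p = 0.0363 in place of 0.0542) and Ube3a (−0.37, 0.0323 in place of 0.0700) were called as well. Fibroblast markers, 6 of 13 listed, summed to 460 and 408 in wild type, 410 and 375 in the KO and 265 and 274 after locus deletion, with 3 of the 6 lower in the locus deletion. The fibroblast markers Col1a2, Col3a1, Dcn, Lum, Postn, Prrx1 and Twist2 were not listed in ESCs. The part of this shift in the falls of Meg3, Rian and Mirg was not tested.

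Setting the KO against the locus deletion tests the difference between the mutants themselves. Of the 47 genes 11 were higher in the KO and 3 lower, while 4.88% of all genes were called, 2.56% higher and 2.32% lower. The values of 32 genes did not overlap. H19 differed most, by 7.30 (SE 0.353, adjusted p = 0.000107), a 154-fold ratio, followed by Phlda2 (26 and 21 in the KO against 1 and 0, a difference of 4.11, adjusted p = 0.00565) and Igf2 (3.68, adjusted p = 0.00281). Peg10 differed by 2.57 (adjusted p = 0.000107), Sgce by 1.77, Rian by 1.31, Meg3 by 1.13, Ppp1r9a by 1.06, Mirg by 0.93, Plagl1 by 0.70 and Zdbf2 by 0.43. Dio3 was lower in the KO (−0.88, adjusted p = 0.0211), as were Grb10 (−0.69) and the protease gene Usp29 (−1.24, adjusted p = 0.0414), which stood at 22 and 35 in the KO and 71 and 63 after locus deletion. Leaving out KO library 1 or 2 left none of these calls, and leaving out locus deletion library 1 or 2 left Peg10 and H19. With the block, Rtl1 (0.81, adjusted p = 0.00865 in place of 0.0548), Igf2r (0.0416) and Slc22a3 (0.0415, listed through the KO alone) were called too.

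In Actg1 KO embryonic fibroblasts, Igf2, Dio3, Peg10 and Plagl1 were higher and Snrpn and Grb10 lower. Of the 33 listed genes 11 rose and 7 fell in the KO, while 39.7% of all 21589 genes tested were called, 20.6% higher and 19.1% lower. The median over the 33 genes was 0.03, beside 0.059 over all genes, and 27.3% differed by at least 1 on the log2 scale, beside 24.9% of all genes. The values of 27 genes did not overlap with wild type. Fibroblast markers, 13 of 13 listed, summed to 66755 and 62077 in wild type, 175315 and 183382 in the KO and 57614 and 60057 after locus deletion, with 9 higher and 3 lower in the KO. Neuron markers, 2 of 5 listed, summed to 5415 and 5527, 1905 and 1916, and 2657 and 3168 in the same order, both lower in each mutant. Skeletal muscle markers, 3 of 4 listed, summed to 9 and 12 in wild type and 44 and 49 in the KO, all 3 higher. Myod1, at 0 and 0 in wild type and 9 and 5 in the KO, is listed through the KO alone and had to differ. Myh3 was low in both, at 1 and 0 against 5 and 6. Of the 3 pluripotency markers listed in MEFs, 2 rose and 1 fell in the KO, and 2 fell after locus deletion. Sox2 stood at 44 and 32 in wild type, 1326 and 1306 in the KO and 0 and 0 after locus deletion. In the same order Klf4 stood at 1873 and 1790, 806 and 806, and 471 and 540, and Nanog at 4 and 2, 18 and 15, and 1 and 5. The part of these shifts in the differences below was not tested.

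Igf2 stood at 10 and 9 in wild-type MEFs and at 63 and 92 in the KO (2.88, SE 0.361, adjusted p = 0.000542), 8.16-fold higher. H19 stood at 11 and 6 against 35 and 38 (2.03, SE 0.408, adjusted p = 0.00554). As in ESCs, both genes of the locus rose in the KO. Per kilobase of exon, H19 was at 3.46 in wild-type MEFs, while Grb10 had the highest level of the listed genes, at 943.

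Dio3 was listed at 1 and 0 in wild type, at 1 and 0 after locus deletion and at 63 and 68 in the KO (5.55, SE 0.572, adjusted p = 0.000199). It is in this table only through the KO, so a difference had to appear. Dlk1, Meg3, Rian and Mirg are not listed in MEFs, and Rtl1 was low in all 6 libraries, from 6 to 11.

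Plagl1 stood at 78 and 75 in wild type, 315 and 306 in the KO and 3 and 0 after locus deletion. It was 4.06-fold higher in the KO (2.01, SE 0.561, adjusted p = 0.0237, but 0.0831 with a pseudocount of 0.5) and fell by 5.28 after locus deletion (SE 0.561, adjusted p = 0.000637). The 3 groups did not overlap, and the KO differed from the locus deletion by 7.28 (adjusted p = 3.62e-05). Snrpn went the other way, with 61 and 74 in wild type, 5 and 0 in the KO and 202 and 225 after locus deletion. It fell by 4.80 in the KO (SE 0.709, adjusted p = 0.00124), and its difference of 1.65 after locus deletion was not called (adjusted p = 0.146), although those libraries lay above wild type. The KO and the locus deletion differed by −6.45 (adjusted p = 0.000211). Exons of Snrpn are shared with Gm38393 (27.3%) and Snurf (10%) on the same strand, so its counts are uncertain in part.

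Peg10 rose in both mutants, from 3678 and 3353 to 9934 and 10651 in the KO (1.55, SE 0.0657, adjusted p = 4.19e-06) and 8250 and 8249 after locus deletion (1.23, adjusted p = 3.27e-05). Sgce rose in the KO alone, from 297 and 334 to 573 and 653 (0.96, adjusted p = 0.000259), at 321 and 342 after locus deletion, and the mutants differed by 0.88 (adjusted p = 0.000295). Asb4, an adaptor of ubiquitin ligases further along the locus, stood at 4 and 6 in wild type, 16 and 20 in the KO (1.68, adjusted p = 0.00894) and 20 and 18 after locus deletion (1.76, adjusted p = 0.0134). Grb10 fell in the KO, from 8885 and 8251 to 4182 and 4501 (−0.98, SE 0.0693, adjusted p = 3.28e-05), and overlapped with wild type after locus deletion, at 8572 and 9267. The mutants differed by −1.04, lower in the KO.

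At the Kcnq1 locus of chromosome 7, Kcnq1ot1 rose in the KO from 1708 and 1942 to 3010 and 2584 (0.61, adjusted p = 0.0143) and overlapped with wild type after locus deletion, at 2216 and 1594. Osbpl5, a sterol-binding protein gene, fell from 661 and 611 to 454 and 481 in the KO (−0.44, adjusted p = 0.0132) and to 353 and 428 after locus deletion (−0.71, adjusted p = 0.00309). Tssc4 fell after locus deletion, from 193 and 218 to 154 and 144 (−0.46, adjusted p = 0.0291), and stood at 172 and 170 in the KO, where it was not called. Nap1l4 was called in neither mutant, with 2599 and 2610 in wild type, 2535 and 2513 in the KO and 2261 and 2548 after locus deletion. Ube3a stood at 3440 and 3665 in wild type, 4323 and 4287 in the KO (0.28, adjusted p = 0.00543) and 5979 and 6051 after locus deletion (0.76, adjusted p = 0.000127). Copg2, which encodes a vesicle coat subunit, fell in the KO from 822 and 763 to 468 and 518 (−0.69, adjusted p = 0.000926). Inpp5f, a phosphoinositide phosphatase gene, rose from 453 and 418 to 590 and 652 (0.51, adjusted p = 0.00239).

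On chromosome 2, H13, which encodes signal peptide peptidase, rose in the KO from 2340 and 2357 to 3460 and 3511 (0.57, adjusted p = 0.000167) and fell after locus deletion to 1689 and 1787 (−0.44, adjusted p = 0.00156). Mcts2, a gene inside an intron of H13, moved the opposite way, from 202 and 204 to 131 and 167 in the KO (−0.45, adjusted p = 0.0436). Gnas fell in the KO from 3434 and 3129 to 2284 and 2373 (−0.49, adjusted p = 0.00135), with 2762 and 3061 after locus deletion, and Blcap from 302 and 283 to 192 and 180 (−0.65, adjusted p = 0.00128). The median over all 1645 genes tested on chromosome 2 was −0.442 in this comparison, so the falls of Gnas, Mcts2 and Blcap lie near the level of their chromosome, and H13 lies above it. With each chromosome's median set to 0 in each library, an alternative chosen after seeing the data, Gnas was at 0.02 (adjusted p = 0.885), Mcts2 at 0.05 (adjusted p = 0.808) and Blcap was no longer called. The rise of Ube3a on chromosome 7 in the KO was not called then either (0.13, adjusted p = 0.0930). The call of Mcts2 was also lost under both other scalings (0.0691 and 0.0755).

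After deletion of the full Actg1 locus, 5 of the 33 genes rose and 6 fell, while 22% of all genes were called, 9.46% higher and 12.6% lower. The median was 0 over the 33 and over all genes, 21.2% differed by at least 1, beside 14.1% of all genes, and the values of 18 did not overlap. Besides the genes above, Trappc9, a vesicle transport gene, rose from 874 and 845 to 1241 and 1136 (0.47, adjusted p = 0.00318) and Impact from 430 and 442 to 680 and 617 (0.57, adjusted p = 0.00382). Airn, the antisense RNA that silences Igf2r, fell from 115 and 128 to 90 and 72 (−0.59, adjusted p = 0.0372), while Igf2r, the receptor that clears Igf2, stood at 8237 and 7339 in wild type and 6839 and 7852 after locus deletion, with overlapping values. Igf2 was listed at 3 and 4 after locus deletion (−1.23, adjusted p = 0.0470, but 0.0811 with a pseudocount of 5). Between the mutants 11 of the 33 genes were higher in the KO and 9 lower, while 45.2% of all genes were called (24.5% higher, 20.7% lower), and the values of 25 did not overlap. Igf2 differed by 4.11 (adjusted p = 6.78e-05) and H19 by 2.44 (adjusted p = 0.00191), both higher in the KO. Ppp1r9a, at 5 and 7 in the KO and 1 and 0 after locus deletion, is listed through the KO alone.

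Without KO library 1, 9 of the 18 KO calls in MEFs were left, and without KO library 2, 10. Plagl1 (adjusted p of 0.168 to 0.253), Kcnq1ot1 (0.0920 to 0.249), Osbpl5 (0.0717 to 0.169) and Mcts2 (0.0654 to 0.245) were lost whichever library was left out, while Peg10, Grb10, H13, Sgce, Blcap, Inpp5f, Snrpn and Igf2 were kept in all 4 fits, with adjusted p of at most 0.0474. Dio3 was called in all 4 as well, but it is listed through the KO alone, so this says nothing of its stability. H19, Gnas, Ube3a and Asb4 were lost when either KO library was left out (0.0824 at most), and Copg2 without KO library 1. For the locus deletion, 5 of the 11 calls were left without wild-type library 1 and 7 without locus deletion library 2, and without wild-type library 2 there were 6 calls, 5 of them among the 11. Peg10, Ube3a, H13 and Plagl1 were kept in all 4 fits, and Igf2 (0.0771 to 0.167) and Tssc4 (0.0688 to 0.138) in none. Between the mutants 12 of 20 were left without KO library 1 or 2.

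**Figure D3:**
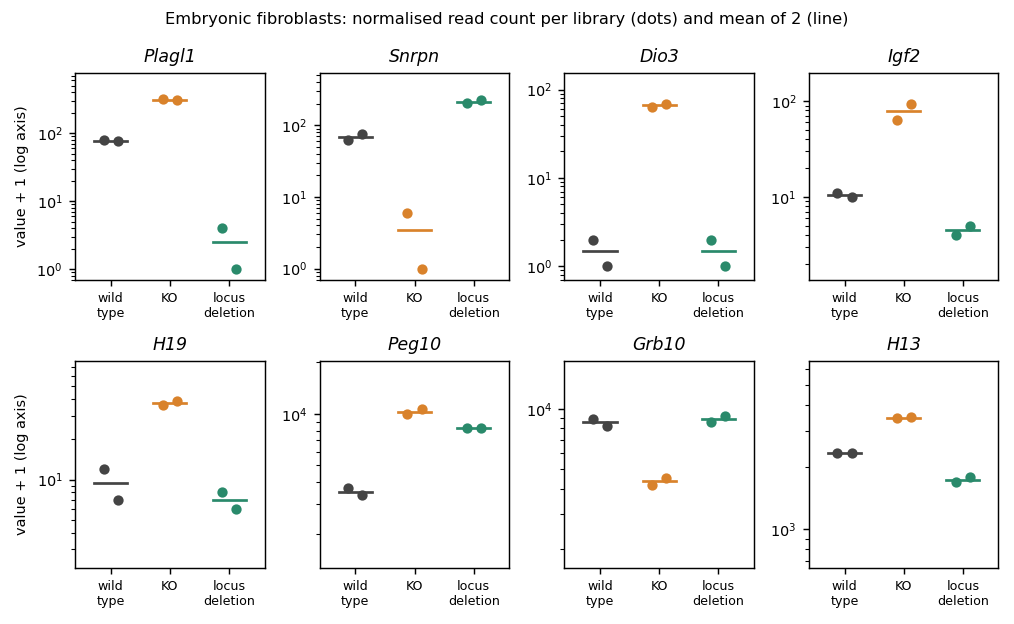
Normalised read count + 1 on a log axis for 8 genes in wild-type, Actg1 KO and Actg1 locus deletion MEFs, with 1 dot per library and a line at the mean of the 2. Plagl1, Igf2 and H13 are highest in the KO and lowest after locus deletion, and Snrpn shows the reverse order.

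In Kindlin-2 KO kidney fibroblasts, the RNA of Peg3 was not detected, that of Kcnq1ot1 nearly disappeared, and Phlda2, Zim1 and Igf2r were higher. Of the 37 listed genes 14 rose and 15 fell, while 49.2% of all 18288 genes tested were called, 24.3% higher and 24.9% lower. The median difference was 0.02, beside 0.014 over all genes, but the sizes were larger: the median absolute difference was 1.03, beside 0.49 over all genes, and 51.4% of the 37 differed by at least 1 on the log2 scale, beside 24.5% of all genes. The values of 34 did not overlap. For 11 of the 37 every library of 1 group lies below 5, the lowest maximum of any gene in this table. These 11 are listed through 1 group alone and had to differ, so the counts over the 37 support nothing by themselves.

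At the Peg3 locus, Peg3 (chromosome 7, 6703892 to 6730431), whose promoter is printed above, stood at 3516 and 3575 in floxed cells and at 0 and 0 in the KO. Against the value of 3 reads per library it was at least 1230-fold lower (−11.79, SE 0.13, adjusted p = 1.84e-05). Usp29, which shares its start region with Peg3 on the other strand, stood at 20 and 26 against 0 and 0, at least 7.96-fold lower (adjusted p = 0.000838). Zim1, the neighbour read from the maternal copy, went from 4 and 1 to 64 and 44 (4.10, SE 0.526, adjusted p = 0.00308). The paternally read pair was thus not detected at this depth in either KO library, while the maternally read neighbour was. Peg3, Usp29 and Zim1 are not listed in MEFs at all, wild type included, so low Peg3 is not particular to the Kindlin-2 KO. A count of 0 allows up to 3 reads, and these bounds cover counting error only.

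At the Kcnq1 locus, Kcnq1ot1 (143203458 to 143296549) stood at 2465 and 2248 in floxed cells and 20 and 15 in the KO, 135-fold lower (−7.00, SE 0.152, adjusted p = 4.76e-05). Phlda2 went from 0 and 0 to 42 and 56, at least 15.9-fold higher (5.63, SE 0.35, adjusted p = 0.000355). Cdkn1c, an inhibitor of the cell cycle, rose 2.48-fold, from 13 and 10 to 28 and 29 (adjusted p = 0.0127). The potassium channel gene Kcnq1 went from 0 and 2 to 8 and 13 (2.70, adjusted p = 0.0260) and the transporter gene Slc22a18 from 0 and 0 to 2 and 10 (2.52, adjusted p = 0.0464). All 4 protein-coding genes of the locus that are read from the maternal copy had higher values in both KO libraries, but Slc22a18 in KO library 1 lies under the value of 3 reads, 2.79, so it was not told apart from 0 there. Phlda2, Kcnq1 and Slc22a18 are listed through the KO alone. The genes with limited bias were level: Tssc4 stood at 105 and 137 against 138 and 118, Nap1l4 at 1350 and 1428 against 1409 and 1410, and Osbpl5 at 268 and 278 against 304 and 352, none of them called.

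At the Snrpn locus, Snrpn went from 35 and 30 to 1 and 0 (−4.56, SE 0.464, adjusted p = 0.00145) and the ubiquitin ligase gene Mkrn3 from 7 and 8 to 0 and 0 (at least 2.6-fold lower, adjusted p = 0.00438). Ube3a fell from 3697 and 3588 to 2135 and 2064 (−0.80, adjusted p = 0.000209). H19 was listed at 1 and 0 in floxed cells and at 8 and 6 in the KO (2.49, adjusted p = 0.0172), and Igf2 is not listed in this table.

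Along chromosome 7, the 5 listed genes read mainly from the paternal copy (Peg3, Usp29, Kcnq1ot1, Snrpn and Mkrn3) were all lower in the KO, with a median of −4.57, and the 6 read mainly from the maternal copy (Zim1, H19, Kcnq1, Cdkn1c, Slc22a18 and Phlda2) were all higher, with a median of 2.61. Of these 11 genes only Kcnq1ot1 and Cdkn1c are listed through both groups, so the split describes these libraries and is not a test. Of the 5 chromosome 7 genes with limited bias, 2 fell (Ube3a and Inpp5f) and none rose. The median over all 1313 genes tested on chromosome 7 was −0.234, and 48.1% of them were called.

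**Figure D4:**
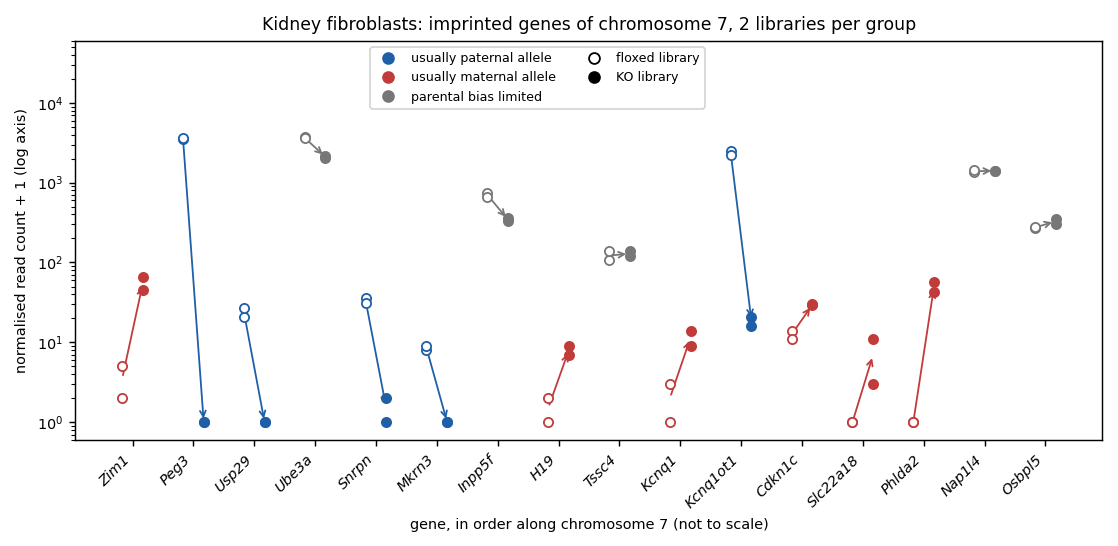
Normalised read count + 1 on a log axis for the 16 imprinted genes of chromosome 7 listed in kidney fibroblasts, in chromosome order, with open dots for the 2 floxed libraries, filled dots for the 2 KO libraries and an arrow from mean to mean. Blue marks genes usually read from the paternal copy, all lower in the KO, red those usually read from the maternal copy, all higher, and grey those with limited bias.

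On the other chromosomes the genes did not divide in this way. Of the maternally read genes there 3 of 4 rose and 1 fell, and of the 11 paternally read genes 2 rose and 4 fell. Igf2r (chromosome 17, 12682406 to 12769664) rose 4.29-fold, from 481 and 510 to 1993 and 2256 (2.10, SE 0.076, adjusted p = 0.000106). Its antisense RNA Airn is not listed in this table. Peg10 fell from 2444 and 2484 to 1253 and 1281 (−0.96, adjusted p = 0.000132), Sgce from 277 and 233 to 123 and 103 (−1.17, adjusted p = 0.00243), and Ppp1r9a from 1019 and 976 to 740 and 764 (−0.41, adjusted p = 0.00270). Asb4, the maternally read gene of that locus, rose from 6 and 8 to 39 and 25 (2.02, adjusted p = 0.00685). Within the Peg10 locus the paternally read genes were thus lower and the maternally read gene higher. Mest, which is paternally read, rose 3.57-fold, from 37 and 35 to 139 and 118 (adjusted p = 0.000726), and Copg2, transcribed toward it, fell from 744 and 783 to 581 and 570 (−0.41, adjusted p = 0.00330). Mirg went from 0 and 0 to 6 and 5 (at least 1.78-fold higher, adjusted p = 0.00798), and Dio3 from 3 and 1 to 7 and 6 (not called), on a chromosome whose median was 0.708. Both are listed through the KO alone, so their differences had to appear. Mirg is 1 of the 3 maternally read genes counted above as rising.

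Grb10, which is maternally read in most tissues, fell from 3893 and 3824 to 2359 and 2483 (−0.67, adjusted p = 0.000361), lower as in the MEF and ESC KO. Plagl1 fell from 67 and 65 to 24 and 32 (−1.22, adjusted p = 0.00668), Impact from 603 and 662 to 357 and 347 (−0.84, adjusted p = 0.000780), Inpp5f from 739 and 668 to 329 and 358 (−1.03, adjusted p = 0.000663) and Trappc9 from 623 and 642 to 404 and 455 (−0.56, adjusted p = 0.00373). On chromosome 2, whose median was 0.229, the called genes were all higher. Gnas rose from 3622 and 3722 to 4850 and 5117 (0.44, adjusted p = 0.00126), H13 from 1099 and 1102 to 1663 and 1667 (0.60, adjusted p = 0.000406), Blcap from 138 and 132 to 259 and 202 (0.76, adjusted p = 0.0103) and Mcts2 from 103 and 90 to 174 and 130 (0.64, adjusted p = 0.0350). The last was not called with the chromosome medians set to 0, nor were Copg2 and Ppp1r9a.

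Leaving out a library lowered the 29 calls to 16 without KO library 1, 17 without KO library 2 and 10 without floxed library 1 or 2. Kcnq1ot1, Igf2r, Peg10, Ube3a and H13 were called in all 4 fits, with adjusted p of at most 0.0482. Peg3, Usp29, Mkrn3 and Phlda2 were too, but these 4 are listed through 1 group alone and had to differ. H19 (0.0567 to 0.158), Zim1 (0.0534 to 0.125), Kcnq1 (0.0709 to 0.250), Cdkn1c (0.0538 to 0.113), Asb4 (0.0635 to 0.124), Inpp5f, Sgce, Copg2, Ppp1r9a and Mcts2 were called in none. Snrpn, Mest, Grb10, Gnas, Mirg and Trappc9 were lost when either floxed library was left out, Plagl1 and Blcap also without KO library 1, Impact when either KO library was left out, and Slc22a18 when either floxed library was. Slc22a18 could not be tested without KO library 2. A pseudocount of 5 also ended the call of Slc22a18.

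The KO and floxed kidney cells also differed in cell type markers. Fibroblast markers, 9 of 13 listed, summed to 3251 and 3343 in floxed cells and 1096 and 1153 in the KO, where 7 of the 9 fell. Col1a2, Mmp2, Pdgfrb, Postn and Prrx1 had means of at most 3 in the KO. They are listed through the floxed cells alone, so they had to differ. Kidney epithelium markers, 4 of 5 listed, summed to 4144 and 4264 against 9536 and 9355, with 3 higher. Epcam went from 26 and 11 to 3430 and 3401, and Pax8 from 2044 and 2126 to 2238 and 2219. Macrophage and blood markers, 3 of 5 listed, summed to 162 and 164 against 245 and 264, all 3 higher. Among these Ptprc, at 3 and 4 against 16 and 12, is listed through the KO alone and had to differ. The trophoblast list, of which 5 of 8 genes were listed and which holds the keratins Krt7, Krt8 and Krt18, summed to 2027 and 2176 against 17941 and 18469. Of these genes 4 rose and 1 fell, Gata3 standing at 18 and 13 against 1 and 3. Krt7 and Cdx2 are listed through the KO alone and Gata3 through the floxed cells alone, so these had to differ. The part of these shifts in the differences of the imprinted genes was not tested.

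**Figure D5:**
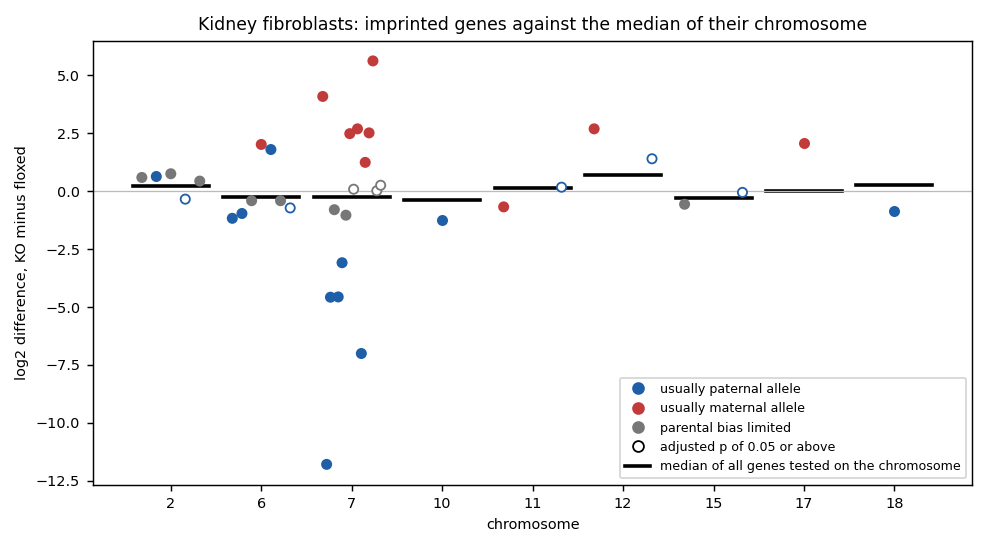
Log2(value + 1) difference, KO minus floxed, of each imprinted gene listed in kidney fibroblasts (dots, by chromosome and in order along it), filled where the limma adjusted p is below 0.05, with the median of all genes tested on that chromosome as a black bar. The genes of chromosome 7 run from −11.79 to 5.63 around a chromosome median of −0.234, a wider range than on any other chromosome shown.

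Across the 5 comparisons of a mutant with its control, 13 genes were called in 1, 12 in 2, 9 in 3 and 4 in 4 (H19, Igf2, Peg10 and Plagl1), and none in all 5. The comparisons within ESCs and within MEFs share controls, so these counts are not independent. Of all genes, 4.88% (KO) and 11.2% (locus deletion) were called in ESCs, 39.7% and 22% in MEFs and 49.2% in the MKF KO. How often all genes were called across the comparisons was not counted, so these counts are not read as a trait of the list. Igf2 was called in all 4 comparisons of the tables that list it, higher in each KO and lower in each locus deletion. Peg10 was higher in the ESC KO and in both MEF mutants and lower in the MKF KO. The other 11 genes of the list that are in a table were called in none: Slc22a3, Calcr, Dlk1, Ascl2, Nap1l4, Ddc, Ndn, Nnat, Nap1l5, Zrsr1 and Peg13. In ESCs Ddc ran from 235 to 346, Zrsr1 from 526 to 982, Nnat from 53 to 66, Peg13 from 44 to 89, Ascl2 from 16 to 39, Ndn from 17 to 34 and Nap1l5 from 15 to 29. Slc22a3, a transporter of the Igf2r locus, stood at 0 and 1 in wild type, 10 and 10 in the KO and 0 and 1 after locus deletion.

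A list of 28 factors known to set, keep or read imprints was fixed beside the imprinted genes. In ESCs 5 rose and 1 fell in the KO, and 6 rose and 1 fell after locus deletion, with a median of 0.16 in each, while 2.44% of all genes rose and 2.44% fell in the KO and 5.19% rose and 6% fell after locus deletion. Zfp57, the zinc finger protein that guards imprints, rose from 5160 and 4692 to 8064 and 8415 in the KO (0.74, adjusted p = 0.00562) and 8137 and 8516 after locus deletion (0.76, adjusted p = 0.00278). Dnmt3l, the cofactor of new methylation in germ cells, rose in the KO from 880 and 699 to 2513 and 2437 (1.66, adjusted p = 0.000531), and Dppa3, which protects the maternal genome after fertilisation, rose after locus deletion from 166 and 95 to 692 and 764 (2.52, adjusted p = 0.00169). The methyltransferase gene Dnmt3b, the oxidase gene Tet2 and the chromatin gene Atrx rose in both mutants, by 0.81 and 0.91, 0.46 and 0.63, and 0.52 and 1.04. Suz12 rose after locus deletion, Tet3 fell in the KO (−0.70) and Dnmt3a after locus deletion (−0.96). Between the mutants Dnmt3l, Dnmt3a and Cbx5 were higher in the KO and Dppa3 (−3.70) and Atrx lower.

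In the MEF KO, where 20.6% of all genes rose and 19.1% fell, 3 of 25 listed rose (Tet3, Tet2 and Dnmt3b) and 12 fell: Dnmt1 (−0.45), which copies methylation at replication, its partner Uhrf1, Zfp57 (−0.74), Zfp445 (−0.67), Trim28 (−0.23), Ehmt2 (−1.06), Ehmt1, Arid4a (−0.85), Hells, Smchd1, Ezh2 and Tet1 (−3.14). After locus deletion, where 9.46% of all genes rose and 12.6% fell, Tet3, Eed, Dnmt3a and Tdg rose and Dnmt1 (−0.54), Uhrf1 (−0.60), Ezh2, Kdm1b and Tet2 (−0.64) fell. Between the MEF mutants 3 were higher in the KO (Setdb1, Tet3 and Tet2) and 13 lower, beside 24.5% and 20.7% of all genes. In the MKF KO, where 24.3% of all genes rose and 24.9% fell, Arid4a rose (0.53) and 17 of 25 fell, with a list median of −0.25: Dnmt1 (−0.28), Uhrf1, Trim28 (−0.46), Zfp57 (−0.55), Zfp445, Setdb1, Ehmt1, Ehmt2, Smchd1, Hells, Ezh2, Cbx5, Atrx (−0.77), Tdg, Tet2 (−0.88), Tet3 and Tet1. Tet1, which removes methylation, stood at 109 and 84 in floxed cells and at 6 and 7 in the KO, and at 29 and 30 in wild-type MEFs and 3 and 2 in the MEF KO. Medians over all genes of a chromosome ran from −0.68 to 0.316 in the MEF KO and from −0.458 to 0.708 in the MKF KO. Many differences of the factors lie within these ranges, and the part of chromosome-wide shifts in them was not tested.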

How the data were processed

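Per the labels' protocols, RNA came from a miRNeasy extraction and libraries were made with a kit for total RNA that keeps strand (SMARTer). The tools listed in the submitters' processing notes are DESeq2 1.14.1, featureCounts 1.6.0, Subread, STAR 2.5.3a and FastQC, with the build mm10 (GRCm38). The authors deposited 1 table per cell type, with a score in whole numbers. Judged from the values, this score is a read count per gene that was scaled by a library factor and then rounded, 1 read being worth 0.715 to 1.299. The values were therefore not treated as counts, and a count test planned for raw counts gave way to limma, as the plan named. The tables were normalised separately, and groups were compared within a table only.

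Genes with a mean of at least 1 were fitted on log2(value + 1) with limma 3.58.1 (R 4.3.3), using group means, all groups of a table in 1 fit and a trended prior. Tests were two-sided, with Benjamini-Hochberg adjustment over all genes tested and a call at an adjusted p below 0.05. Residual degrees of freedom were 3, 3 and 2 in ESCs, MEFs and MKFs. The fit was also run on simulated data with known changes. Those changes were confined to abundant genes, and the noise was independent between libraries. Low genes and libraries that deviate together, as in ESCs, were therefore not covered. Log2 differences understate the change of low genes. Against a group at 0, folds use the value of 3 reads per library, 2.14 to 3.9. Where a group's mean is above 0 and at most 3, levels are given in place of a fold. Every gene reaches at least 4 (ESCs, MEFs) or 5 (MKFs) in some library, so genes below that were not analysed here. Replicates correlated at 0.981 to 0.996 and differed by more than sampling noise, so none was counted as a repeat. This excess does not show whether they are separate cultures.

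ESC libraries of the same number deviated together (correlations of 0.678, 0.349 and 0.492 between the groups), a pairing that comes from the values and not the labels, so ESC calls that a block changes are given with that value. In MEFs (−0.211, −0.302 and 0.214) and MKFs (−0.0952) they did not. Positions are from GENCODE M21 on GRCm38, and promoter sequences from RefSeq on GRCm38.p6, with 40 genes matched. Values are given for every gene of the list called in a comparison, and for those with a mean of at least 100 in some group at the Igf2-H19, Dlk1-Dio3, Peg3, Kcnq1, Peg10, Snrpn and Gnas loci. The genes, the parental classes, which come from textbook knowledge, and the other lists were chosen with earlier results of these data known. One further marker gene is not reported here. Alternatives were pseudocounts of 0.5 and 5, other filters and scalings, only the 4 libraries compared, a replicate block and each library left out.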

Additional observations from a re-analysis of the deposited data

Results flagged for a closer look

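At 5 points the KO and the locus deletion were called against wild type in opposite directions and also differed from each other, by limma. In ESCs these were H19, with 7.30 between KO and locus deletion, and Igf2, with 3.68. In MEFs they were Plagl1, with 7.28, Igf2, with 4.11, and H13, with 1.00, all higher in the KO. The mutants share their wild-type libraries. Of these, Plagl1 in the MEF KO and Igf2 against wild type in either ESC mutant and after MEF locus deletion were not called with any 1 library left out, and H19 in the ESC KO was not either.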

How the results depend on the processing

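With 1 library left out, the listed genes called fell to 0 to 2 from 8 (ESC KO against wild type), 4 to 6 from 14 (ESC locus deletion), 0 to 2 from 14 (ESC KO against locus deletion), 9 to 14 from 18 (MEF KO), 5 to 8 from 11 (MEF locus deletion), 12 to 20 from 20 (MEF KO against locus deletion) and 10 to 17 from 29 (MKF KO). Such a fit takes the spread of the remaining library from the other groups. With only the 4 libraries compared, 5, 7 and 6 were called in the 3 ESC comparisons and 17, 9 and 19 in the 3 MEF comparisons, where the calls of Mcts2 (KO), Tssc4, Airn and Igf2 (locus deletion) and Kcnq1ot1 (KO against locus deletion) were lost. Both other scalings ended the calls of Mcts2 (MEF KO) and Zdbf2 (ESC KO against locus deletion), a pseudocount of 0.5 that of Plagl1 (MEF KO), and a pseudocount of 5 those of Igf2 (MEF locus deletion) and Slc22a18 (MKF KO). With the replicate number as a block, 12, 16 and 17 were called in ESCs, 18, 8 and 20 in MEFs and 28 in MKFs. Outside ESCs this ended the calls of Tssc4, Airn and Igf2 (MEF locus deletion), Mcts2 (MEF KO) and Slc22a18 (MKF KO), where libraries share only a number. With chromosome medians set to 0, chosen after seeing the data, Gnas (MEF KO) went to 0.02 and Mcts2 (MEF KO) to 0.05, both not called. Between the MEF mutants Gnas changed direction. It was called lower in the KO in the main fit, at −0.32, and higher with the medians set to 0, at 0.29 (limma adjusted p = 0.00621). Depth limits genes near 3 reads, and genes listed through 1 group alone (11 in MKFs, 2 each in ESCs and MEFs) had to differ, so that calls kept for them show no stability.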

Other observations

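Other annotated genes inside or within 100 kb of the imprinted loci were read as well, and those named here were chosen after their values were seen. On the plus strand between Meg3 and Mirg, 37 further genes listed in ESCs summed to 1892 and 2317 in wild type, 1514 and 1708 in the KO and 647 and 730 after locus deletion. After locus deletion 6 of them fell and none rose by limma, beside 6% of all genes lower, and in the KO none was called. Gm26945 stood at 522 and 681 in wild type and 154 and 161 after locus deletion. AL591207.3, which starts beside Dio3 on the other strand, stood at 11 and 9 in wild type, 25 and 24 in the KO and 65 and 34 after locus deletion in ESCs, and at 0 and 0 in wild-type MEFs and 33 and 23 in the MEF KO.

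Peg12, a gene near the Snrpn locus, stood at 2 and 1 in wild-type MEFs, 136 and 125 in the KO and 0 and 0 after locus deletion, while Snrpn was at 5 and 0 in the KO and 202 and 225 after locus deletion. Snhg14, the host transcript of small nucleolar RNAs there, was at 65 and 88, 55 and 50, and 231 and 181 in the same order. In MKFs Peg12 went from 22 and 13 to 0 and 0 in the KO, Snhg14 from 44 and 60 to 6 and 13, and Gm44862 of the Peg3 locus from 22 and 25 to 0 and 0. Phactr2, beside Plagl1, stood at 2 and 1 in wild-type MEFs and 97 and 93 in the KO, and at 576 and 568 in floxed MKFs and 24 and 24 in the KO.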
